A study of Mus musculus with 7 samples.

Results

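Cohesin is a ring of proteins that holds DNA within its lumen, and CTCF is a zinc finger protein that binds a specific DNA motif and halts cohesin as it extrudes a loop. The genes that encode this machinery are themselves stretches of chromatin to which CTCF and cohesin can bind. The present results describe CTCF and cohesin binding in liver chromatin at 9 such genes, of 21418 autosomal protein-coding genes. They were Ctcf and its paralogue Ctcfl, the ring components Rad21, Smc3 and Stag1, the loader genes Nipbl and Mau2, and the cohesin regulators Pds5a and Pds5b. The genes were chosen by name, and each was examined over its annotated span extended by 50 kb on each side.

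Liver was taken from 8-week-old female CD-1 mice, an outbred stock (strain Crl:CD1(ICR)), without treatment or engineered alleles. Crosslinked liver nuclei were used for ChIP-seq against CTCF in 4 libraries and against the cohesin subunit Rad21 in 3 libraries. The data used here are 2 peak lists by the authors, each for a single antibody. Their names mark them as merged, and they were read as calls on all libraries of that antibody pooled. Raw reads, also made available by the authors, were not used. The lists hold 68667 CTCF peaks and 68656 Rad21 peaks, carry no read totals and give no value per mouse. No spread between mice and no test between conditions can therefore be given from them. The strength of a peak is given as its fold enrichment, which MACS2 takes at the summit relative to background nearby. Fold enrichments are compared only within a list. A region without a peak was below the authors' threshold, and is not shown to be unbound. Liver was assayed as whole tissue, so strong binding in few cells and weak binding in many cells cannot be told apart.

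CTCF and cohesin share most of their sites in mammalian genomes. Following the usual naming, a site bound by both factors is a CAC (cohesin-and-CTCF) site, a Rad21 peak that touched no CTCF peak is a CNC (cohesin-non-CTCF) site, and a CTCF peak that touched no Rad21 peak is a Lone CTCF site. A promoter was the region within 1 kb of the main transcription start site (TSS), and distances are given along the gene, negative upstream of the TSS.

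The promoters of all 9 genes carried both CTCF and Rad21, and at each of them a CTCF peak overlapped a Rad21 peak. No promoter carried CTCF only, Rad21 only or neither. Among all 21418 promoters, 47.4% carried both factors, 3.63% CTCF only, 3.26% Rad21 only and 45.7% neither. The background depended on base composition. A promoter was called CpG-rich where the CpG content within 500 bp of the TSS was at least 0.6 of that expected from its C and G content and the GC content was at least 50%, a definition adopted after the values were seen. By this definition 8 of the 9 promoters were CpG-rich, and all 8 carried both factors, against 79.5% of the 9763 CpG-rich promoters genome-wide. The exception was Ctcfl, with a CpG ratio of 0.412, and both factors were found at 20.5% of the 11655 promoters that were not CpG-rich. The part of base composition in the count of 9 of 9 was not tested.

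**Figure D1:**
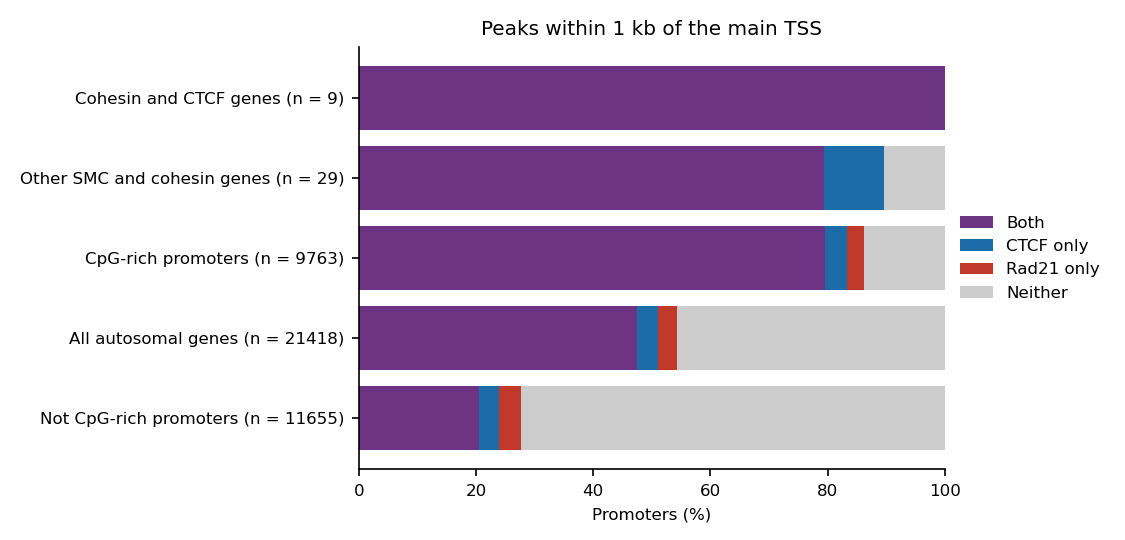
Share of promoters (%, x axis) with both factors, CTCF only, Rad21 only or neither within 1 kb of the main TSS, for the 9 cohesin and CTCF genes, 29 other cohesin and SMC genes, and all, CpG-rich and not CpG-rich autosomal promoters. The bar of the 9 genes is filled by promoters with both factors, the CpG-rich bar to 79.5% and the bar of all genes to 47.4%.

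Binding strength divided the genes. CTCF at the promoter ranged from 3.61-fold at Ctcfl to 27.8-fold at Pds5b, with a median of 13.5 over the 9 genes, beside a median of 6.47 (quartiles 4.58 and 10.8) over the 10155 promoters with both factors. Rad21 ranged from 2.56-fold at Ctcfl to 25.7-fold at Smc3, with a median of 9.54 beside 5.41 (quartiles 4.27 and 7.14). With a -log10 q of at least 10 required of both factors, 7 of the 9 promoters still carried both (36.5% of all promoters). The other two were Rad21, which kept CTCF only, and Ctcfl, which kept neither. With a fold enrichment of at least 5 required of both, the count was 5 of 9 (23.3% of all promoters), namely Ctcf, Smc3, Stag1, Pds5a and Pds5b. Nipbl and Rad21 then carried CTCF only, Mau2 carried Rad21 only and Ctcfl carried neither. Neither the fold enrichments nor these stricter counts were compared with CpG-rich promoters alone.

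**Figure D2:**
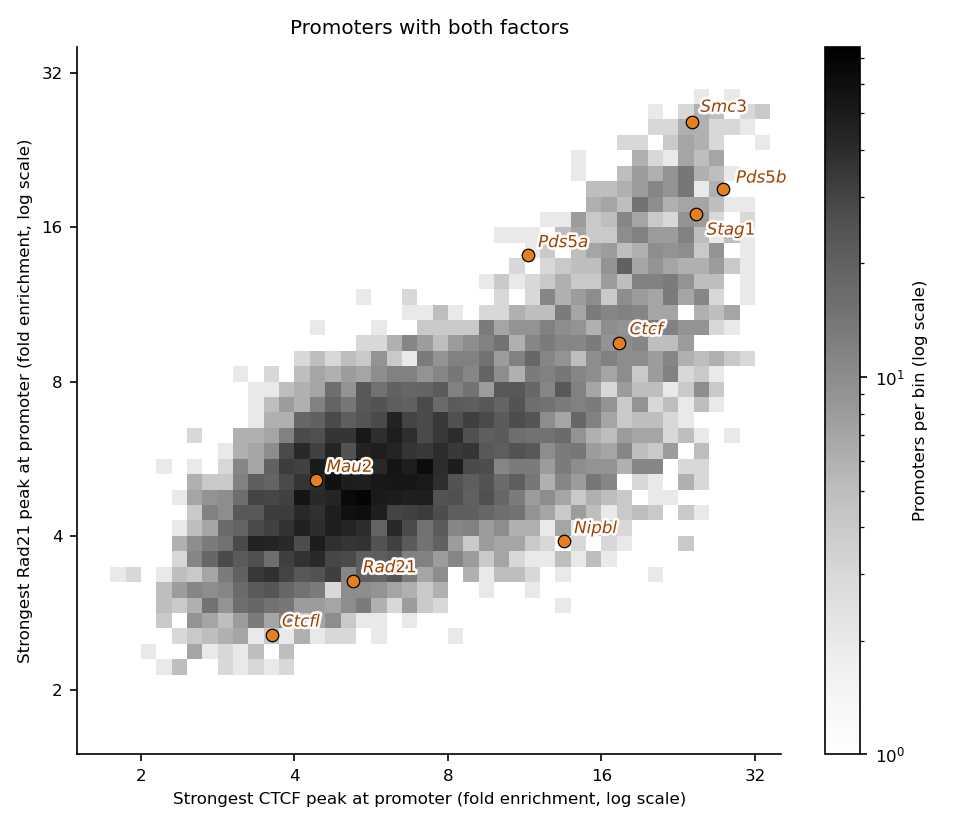
Strongest CTCF peak (x axis) against strongest Rad21 peak (y axis) at each promoter with both factors, as fold enrichment on log scales. Grey squares count all autosomal promoters and orange points are the 9 genes. Smc3, Stag1 and Pds5b lie at the upper right, Ctcfl (3.61 and 2.56) at the lower left, and Nipbl (13.5 and 3.90) below the bulk of promoters of like CTCF strength.

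The motif sequences below show the strongest promoter sites, since only 3 of the 9 promoters held a CTCF motif at their strongest CTCF summit. Motifs were scored on both strands within 100 bp of a summit with a 20-bp matrix learned from the strongest CTCF peaks of 12 autosomes that hold none of the 9 genes. Background shares for motifs were taken from the other 7 autosomes, 6 of which hold the 9 genes. Its consensus was NNGCCACNAGGGGGCGCNNN, where N marks a position at which no base reached 50%. A match scored at least 14.3 bits, a level reached by 1% of 44987 flanking sequences of the same length. The share of 3 of 9 compares with 16.4% of the 4065 promoters with a CTCF peak on the 7 autosomes not used for learning. In the following lines the letters are from mm9, read on the strand of the gene, and capitals mark the motif. The Smc3 site is chr19:53674376-53674435 (+), upstream of the gene. The Stag1 site is chr9:100543984-100544013 (+), in an untranslated exon. The Pds5b site is chr5:151476245-151476304 (+), immediately upstream of the gene.
Smc3: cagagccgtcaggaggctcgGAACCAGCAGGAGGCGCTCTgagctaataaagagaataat
Stag1: cagcgCGGCCAGCAGAGGGCGGTCGggacc
Pds5b: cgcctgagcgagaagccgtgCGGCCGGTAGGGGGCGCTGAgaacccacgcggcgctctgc
The 3 motifs scored 16.8, 25.3 and 22.6 bits and their 20 letters occur nowhere else in the mm9 genome. All 3 ran in the direction of the gene, as did 56.6% of the 666 promoter motifs on those 7 autosomes.

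**Figure D3:**
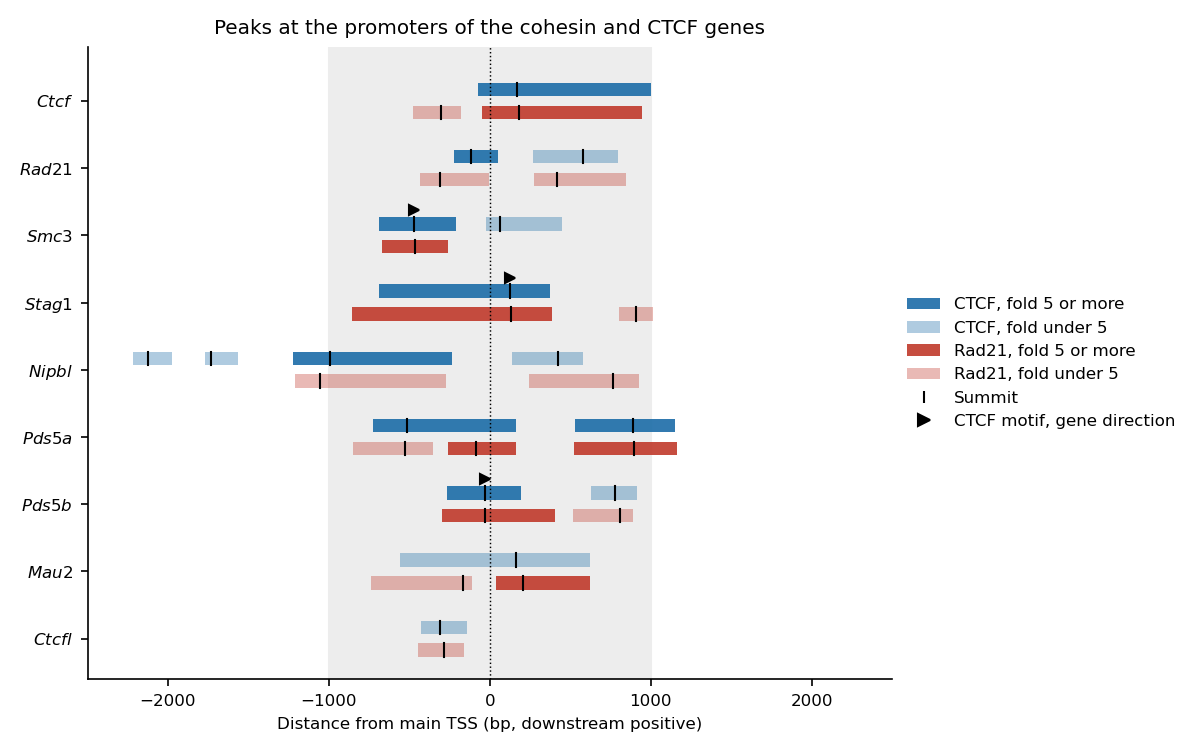
Extent of each CTCF (blue) and Rad21 (red) peak around the main TSS of the 9 genes, as distance in bp along the gene (x axis), with pale bars for peaks under 5-fold, black ticks for summits and arrowheads above the CTCF summits that hold a motif in the direction of the gene. The grey band is the promoter. Each gene has at least 1 blue and 1 red bar in the band, and arrowheads stand at Smc3, Stag1 and Pds5b.

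Ctcf (ENSMUSG00000005698.9, chr8:108160468-108206822, + strand) encodes CTCF itself. Its promoter carried CTCF at 17.3-fold with the summit at 168 bp and Rad21 at 9.54-fold at 183 bp, both in an intron. Among promoters with a peak of the factor these ranked at the 89.3rd percentile for CTCF and the 87.9th for Rad21. A weaker CNC peak of Rad21 (3.33-fold) lay upstream at -303 bp. The best motif score at the promoter summit was 13.8 bits, under the level for a match. The Ctcf window held 12 CTCF and 11 Rad21 peaks, and the promoter was not its strongest site. CTCF was strongest at -31.5 kb, at the promoter of Fam65a (20.3-fold), where Rad21 reached 5.48-fold. Rad21 was strongest at 77.8 kb, in an untranslated exon of Gfod2 (22.2-fold), together with CTCF at 16.4-fold over a motif of 21.4 bits. Further CAC sites of like strength stood at -40.0, -14.0 and 49.3 kb, with CTCF at 16.4-, 17.8- and 18.1-fold. Within the gene, both CTCF peaks beyond the promoter (10.6-fold at 24.8 kb and 4.67-fold at 41.5 kb) were Lone CTCF, and the single Rad21 peak (2.55-fold at 7.06 kb) was CNC.

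Ctcfl (ENSMUSG00000070495.4, chr2:172919110-172945026, - strand) encodes CTCFL, also called BORIS, a paralogue with a like set of zinc fingers that is known mainly from male germ cells. Compared by the strongest peak at each promoter, Ctcfl was the lowest of the 9 genes for both factors, with CTCF at 3.61-fold (-307 bp) and Rad21 at 2.56-fold (-285 bp). Of promoters with a Rad21 peak, 1.502% had a strongest peak this weak or weaker. The motif score was 14.1 bits, just under the level for a match. Its base composition also differed from that of Ctcf, as the 100 bases before each TSS show, with each CpG in capitals. The Ctcf stretch is chr8:108160379-108160478 (+) and the Ctcfl stretch is chr2:172945027-172945126 (-), and they hold 14 and 0 CpG.
Ctcf: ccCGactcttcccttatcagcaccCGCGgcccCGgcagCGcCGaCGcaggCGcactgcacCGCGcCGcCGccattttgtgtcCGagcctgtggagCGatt
Ctcfl: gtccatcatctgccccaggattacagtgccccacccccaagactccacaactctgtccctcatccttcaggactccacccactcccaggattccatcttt
While its promoter was weakly bound, the surroundings of Ctcfl held 15 CTCF and 13 Rad21 peaks, or 11.9 and 10.3 per 100 kb. The CTCF density was as high as or higher than that of 91.5% of all genes and was the highest of the 9 windows. CTCF was strongest at 29.8 kb, just beyond the 3′ end of the gene (25.1-fold, with Rad21 at 18.9-fold), and Rad21 at 38.4 kb (20.3-fold, with CTCF at 23.6-fold). Another strong CAC site lay in an intron at 12.002 kb (CTCF 19.3-fold, Rad21 15.9-fold). The motifs at 29.8 and 38.4 kb pointed in the direction of the gene and the motif in the intron pointed against it. A noncoding transcript, 1300015D01Rik, is annotated across the Ctcfl TSS on the other strand. On the other side, the promoter of Pck1, a key enzyme gene of glucose production in liver, carried Rad21 at 5.22-fold (-33.2 kb) and CTCF at 2.68-fold (-33.5 kb).

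Rad21 (ENSMUSG00000022314.9, chr15:51794151-51823306, - strand) encodes the kleisin subunit that closes the cohesin ring, and is the protein that the cohesin antibody recognises. Its window had only 3 CTCF and 3 Rad21 peaks, the fewest of the 9, and all were CAC. At 2.32 peaks per 100 kb for either factor, it ranked at the 25.8th percentile of all genes for CTCF and the 27.7th for Rad21. A pair of sites flanked the TSS, one with CTCF at 5.20-fold (-117 bp) and Rad21 at 3.14-fold (-312 bp), the other with CTCF at 4.61-fold (581 bp) and Rad21 at 3.27-fold (416 bp). The strongest CTCF and Rad21 summits at this promoter were therefore 533 bp apart, while they lay within 100 bp at the other 8 promoters (61.6% of promoters with both factors). The remaining site at -28.6 kb was intergenic, with CTCF at 5.09-fold, Rad21 at 6.14-fold and a motif of 15.3 bits, and no other peak lay in the gene. No CTCF peak in the Rad21 window exceeded the 43.2nd percentile of the CTCF list.

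Smc3 (ENSMUSG00000024974.9, chr19:53674886-53720323, + strand) encodes a long ATPase arm of the ring. Its promoter had the strongest Rad21 peak of the 9 promoters (25.7-fold at -464 bp), over CTCF at 24.1-fold (-472 bp) and the motif printed above. Of promoters with a Rad21 peak, 99.7% had a strongest peak this strong or weaker. The TSS itself carried a separate weak CTCF peak (2.89-fold at 61 bp, in an untranslated exon) without Rad21, the only Lone CTCF peak at any of the 9 promoters. Strong CAC sites stood outward of both ends of the gene, at -21.3 kb (CTCF 20.4-fold, Rad21 22.3-fold) and at 48.5 kb (19.8-fold and 12.3-fold). Their motifs scored 21.0 and 20.4 bits, the upstream motif against and the downstream motif along the direction of the gene.

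Stag1 (ENSMUSG00000037286.8, chr9:100498217-100858964, + strand) encodes one of the alternative STAG subunits, which bind the kleisin and contact CTCF. It is the longest of the 9 genes at 361 kb. The promoter of its main transcripts carried a broad CTCF peak of 24.6-fold (124 bp) with the highest-scoring motif of the promoters and Rad21 at 16.997-fold (134 bp). These were the strongest peaks of both factors in the window. A weak CNC peak of Rad21 (2.55-fold) lay at 907 bp. In contrast, its 461-kb window was sparsely bound, with 11 CTCF and 9 Rad21 peaks (2.39 and 1.95 per 100 kb, at the 26.2nd and 25.01st percentiles). An alternative TSS upstream had a weak CAC site nearby, at -43.8 kb (CTCF 3.09-fold, Rad21 3.78-fold). Within the gene, the next strong CAC site lay near its 3′ end at 274 kb (CTCF 15.7-fold, Rad21 11.7-fold), and between the promoter and that site stood a weaker CAC site at 93.4 kb (CTCF 5.77-fold) and Lone CTCF peaks at 255 and 267 kb (3.85- and 8.38-fold).

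Nipbl (ENSMUSG00000022141.6, chr15:8241225-8394463, - strand) encodes the large subunit of the cohesin loader, the gene most often mutated in Cornelia de Lange syndrome. At its promoter CTCF was 13.5-fold (-994 bp), but Rad21 only 3.90-fold (-1058 bp). Among promoters with a peak of the factor, ranked by their strongest peak, these values stood at the 83.1st percentile for CTCF and the 20.7th for Rad21. This was the widest separation of ranks among the 9. The summits were at the upstream edge of the promoter, although the CTCF peak, chr15:8394697-8395689, extended well into it. A weaker CAC site (CTCF 2.01-fold, Rad21 2.84-fold) lay on the downstream side. A stronger CAC site for both factors stood at -6.76 kb, with CTCF at 15.8-fold, Rad21 at 10.1-fold and a motif of 14.5 bits (chr15:8401196-8401255, + strand, against the direction of the gene). Of the 12 CTCF peaks, 7 were Lone CTCF, the largest number of Lone CTCF peaks in any of the 9 windows, and 4 of these lay in introns between 5.53 and 51.1 kb. Nipbl also had a CAC peak whose CTCF summit fell in a coding exon, at its 3′ end (153 kb, CTCF 10.2-fold, Rad21 5.44-fold), and a CAC site in an intron at 62.1 kb (12.6-fold and 9.21-fold).

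Mau2 (ENSMUSG00000031858.8, chr8:72540022-72566633, - strand) encodes the partner of NIPBL in the loader. Its TSS lies 79 bp from that of Sugp1, a splicing-related gene on the opposite strand, so the promoter and its peaks are shared. CTCF was 4.41-fold (160 bp) and Rad21 5.14-fold (205 bp), both with summits in a coding exon, and a further Rad21 peak (2.88-fold) lay at -165 bp on the Sugp1 side. The motif score of -0.84 bits was the lowest of the 9 promoters. The Mau2 window was dense in peaks, with 9.48 CTCF and 11.1 Rad21 peaks per 100 kb (80.6th and 90.6th percentiles), and 5 of its 12 CTCF peaks were at promoters of neighbouring genes, Gatad2a, Tm6sf2 and Hapln4. The strongest site for both factors was intergenic, at 40.9 kb beyond the TSS (CTCF 16.6-fold, Rad21 14.4-fold). The motifs of the strongest CTCF sites around Nipbl, Mau2 and Ctcfl are shown because at these genes CTCF binding was stronger away from the promoter. The same held for Ctcf, but its strongest CTCF summit, at -31.5 kb, held no motif (7.88 bits). The Mau2 site is chr8:72525722-72525781 (-) and the Ctcfl site, at 29.8 kb, is chr2:172915134-172915193 (-).
Nipbl, -6.76 kb: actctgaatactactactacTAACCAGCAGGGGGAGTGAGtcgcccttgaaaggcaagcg
Mau2, 40.9 kb: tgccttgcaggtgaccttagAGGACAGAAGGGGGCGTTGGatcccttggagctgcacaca
Ctcfl, 29.8 kb: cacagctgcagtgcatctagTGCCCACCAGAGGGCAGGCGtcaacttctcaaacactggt
In these lines capitals mark the motif, read on its own strand. The scores were 14.5, 15.7 and 20.3 bits, and each set of 20 letters was found at a single place in the genome.

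Pds5a (ENSMUSG00000029202.8, chr5:66006499-66089095, - strand) and Pds5b (ENSMUSG00000034021.9, chr5:151476314-151613265, + strand) encode paralogous proteins that bind cohesin and take part both in its release and in the maintenance of cohesion. They differed in how binding was placed. At Pds5a, the stronger promoter site was inside the gene, with CTCF at 11.5-fold (891 bp) and Rad21 at 14.1-fold (896 bp), and a second group of CAC peaks covered the TSS (CTCF 8.45-fold at -512 bp, Rad21 5.88-fold at -85 bp and 3.81-fold at -528 bp). No CTCF motif reached the level for a match at either (11.999 and 12.9 bits). At Pds5b, the promoter carried CTCF at 27.8-fold (-31 bp), the strongest of all 94 CTCF peaks in the 9 windows and at the 99.5th percentile of the CTCF list, and Rad21 at 19.0-fold (-29 bp) over a motif of 22.6 bits. A weak CAC site followed downstream of the TSS (CTCF 2.52-fold at 776 bp, Rad21 2.56-fold at 807 bp). Pds5b also had strong CAC sites in its introns at 29.2 kb (CTCF 26.5-fold, Rad21 12.6-fold) and 44.3 kb (15.2-fold and 10.4-fold), and its strongest Rad21 peak (20.5-fold, CTCF 20.7-fold) stood at -7.87 kb at the promoter of its neighbour N4bp2l2. The Pds5a window held 15 Rad21 peaks, of which 7 were CNC, the most of any of the 9 windows, while the Pds5b window held 7, of which 2 were CNC.

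**Figure D4:**
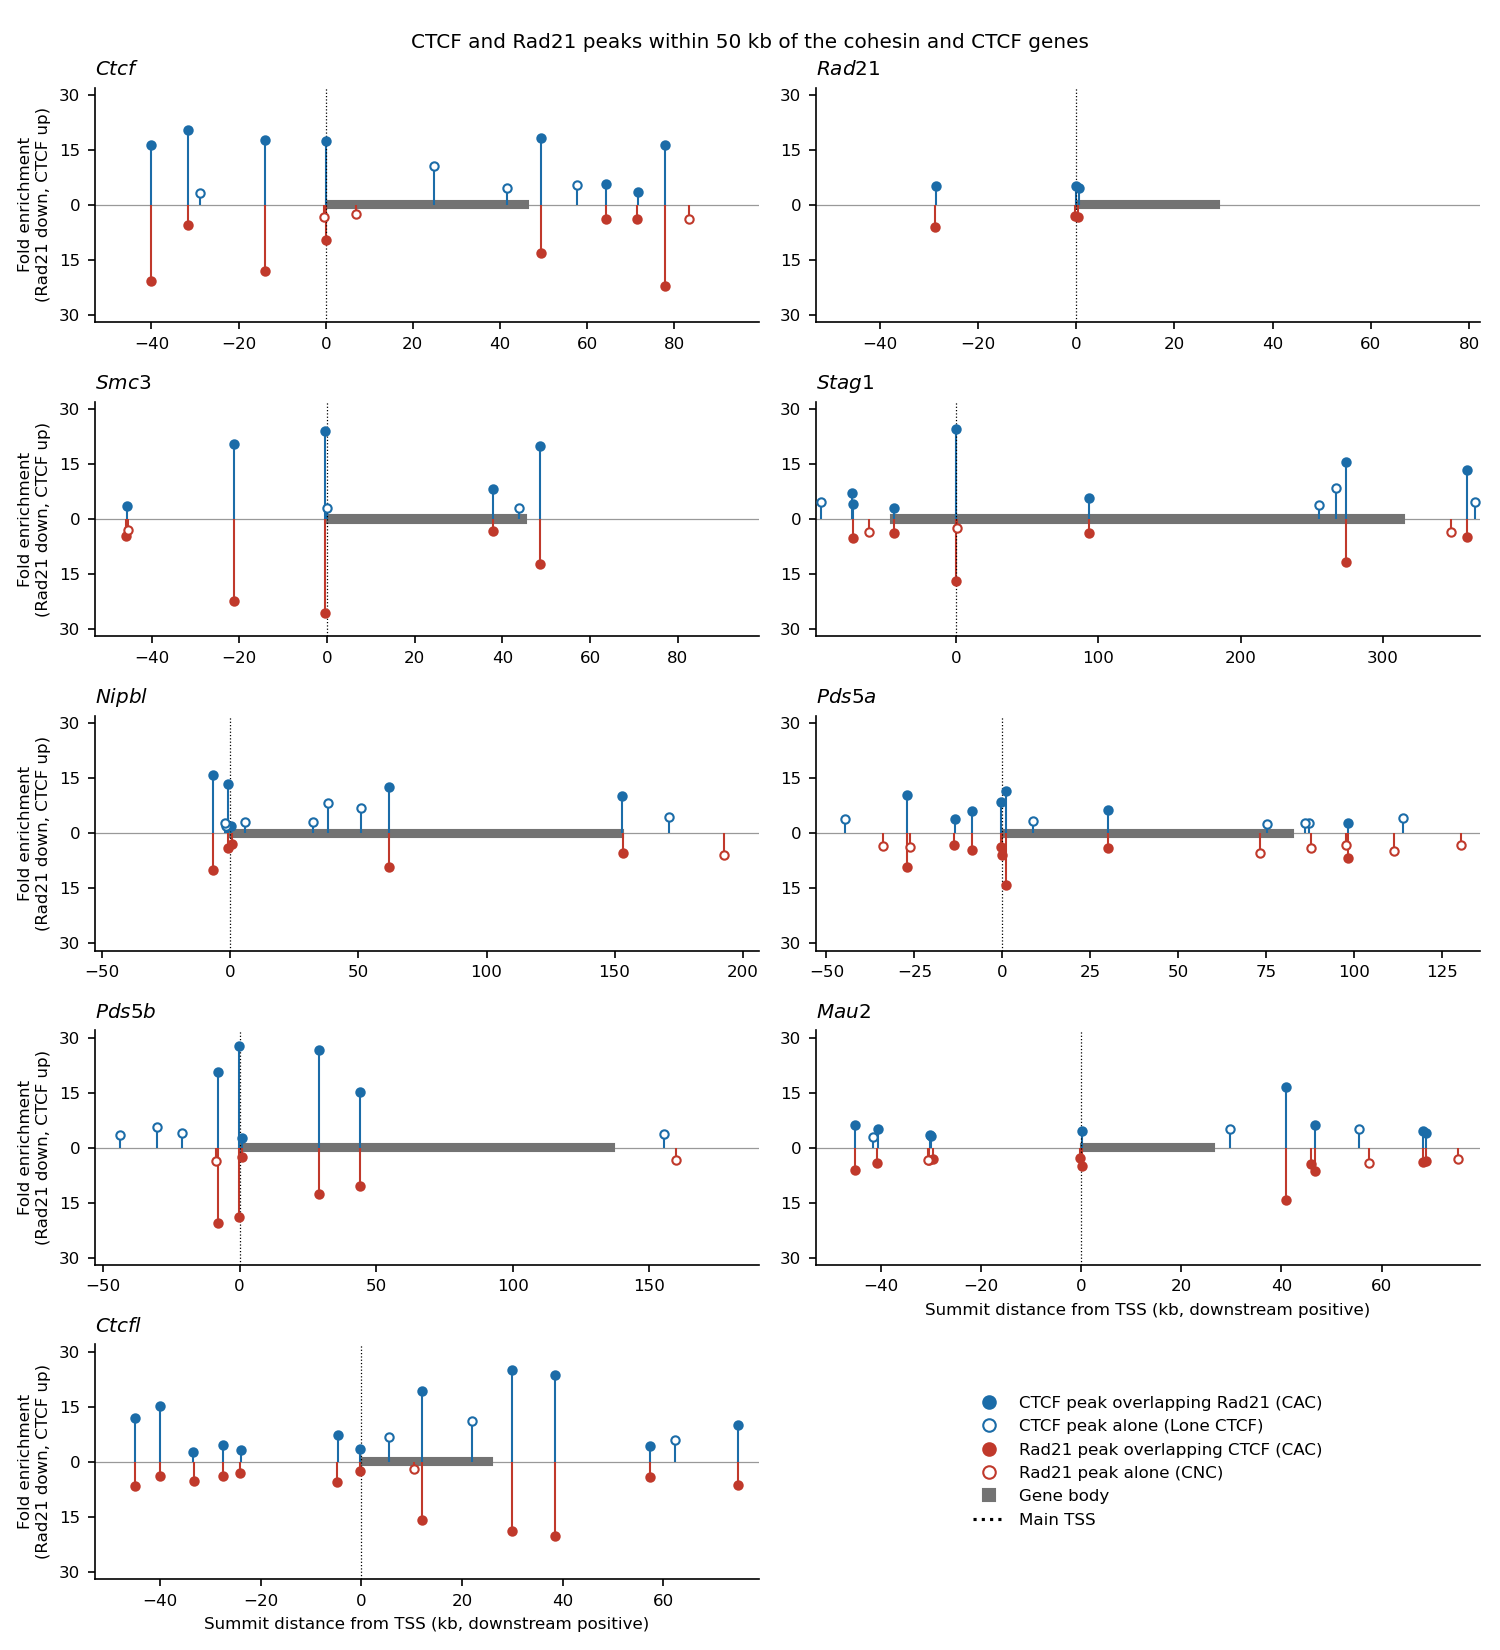
All CTCF peaks (blue, upward) and Rad21 peaks (red, downward) within 50 kb of the 9 genes, with the distance of the summit from the main TSS in kb on the x axis and fold enrichment on the y axis (the scales of the 2 lists are not comparable). Filled points are CAC peaks, open points Lone CTCF or CNC peaks, and the grey bar is the gene. The strongest CTCF peaks stand at the promoter in Smc3, Stag1 and Pds5b (24.1-, 24.6- and 27.8-fold) and away from it in Ctcf, Nipbl, Mau2 and Ctcfl. The strongest Rad21 peak of Pds5b (20.5-fold) stands at -7.87 kb.

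Over all 9 windows there were 94 CTCF peaks and 84 Rad21 peaks. CAC peaks made up 61 of the CTCF peaks (64.9%, with a 95% Wilson interval of 54.8 to 73.8), and Lone CTCF peaks the other 33. They made up 63 of the Rad21 peaks (75%, 64.8 to 83.0), and CNC peaks the other 21. In the whole lists, 73.7% of CTCF peaks and 73.6% of Rad21 peaks were CAC. The list-wide share lay inside the Rad21 interval and only just under the upper limit of the CTCF interval. These intervals cover counting error only and treat peaks of the same window as independent, and no difference was tested. CAC peaks were the stronger ones, with a median CTCF fold enrichment of 8.11 against 3.99 for Lone CTCF peaks, and a median Rad21 fold enrichment of 5.44 against 3.48 for CNC peaks. No CNC peak exceeded 5.81-fold and no Lone CTCF peak exceeded 11.2-fold. At the promoters of the 9 genes 13 of 14 CTCF peaks were CAC (92.9%), beside 87.4% of the 12720 CTCF peaks at autosomal promoters. In the bodies of the genes away from any promoter 10 of 23 were CAC (43.5%), beside 66.3% of the 29499 such CTCF peaks in autosomal genes, and the difference was not tested. The density of peaks showed no common direction. CTCF ran from 2.32 to 11.9 peaks per 100 kb (median 4.81, all genes 5.26) and Rad21 from 1.95 to 11.1 (median 4.13, all genes 4.89).

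A CTCF motif was found at 43 of the 94 CTCF peaks (45.7%, 36.04 to 55.8), beside 43.6% of 24634 CTCF peaks on the 7 autosomes not used for learning. Among peaks of at least 15-fold it was found at 16 of 21 (76.2%, 54.9 to 89.4, beside 78.8%), a limit set after the values were seen. The motifs of 24 of the 43 peaks were unique (55.8%), in that their 20 letters occurred at no other place in mm9 on either strand, beside 69.1% of 10749 motifs at CTCF peaks on those 7 autosomes. Letters that occurred at 10 or more places were found in 11 of the 43 (25.6%, beside 18.2%). Unique letters were found in 20 of 28 CAC motifs (beside 77.9%) and in 4 of 15 Lone CTCF motifs (beside 40.8%). Letters at 10 or more places were found in 4 of 28 CAC motifs (14.3%, beside 10.7% of 8209 CAC motifs on those 7 autosomes) and in 7 of 15 Lone CTCF motifs (46.7%, beside 42.5% of 2540 Lone CTCF motifs). The differences from the background were not tested. At peaks of at least 15-fold, all 16 motifs had letters at no more than 3 places, beside 93.3% of 3860 such motifs on those 7 autosomes.

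The Pds5a window stood out among the 9 for this feature, a choice made after the values were seen, in that 5 of its 6 motifs had repeated letters, at between 181 and 11032 places, and the sixth, at the 10.4-fold CTCF peak at -27.1 kb, was unique. A Lone CTCF peak at -44.6 kb (3.85-fold) and a CAC peak at -13.6 kb (3.91-fold) carried the same 20 letters, the ones found at 11032 places. A Lone CTCF peak in the Mau2 window (5.09-fold at 55.6 kb, in an intron of Gatad2a) and another in the Nipbl window (4.40-fold at 171 kb) likewise shared their letters, which occur at 96 places. The sequences are shown with 40 bases on each side, on the strand of the motif, with the motif in capitals. They are chr5:66102561-66102660 (+), chr5:66133621-66133720 (-), chr8:72511032-72511131 (+) and chr15:8223146-8223245 (-).
Pds5a, -13.6 kb: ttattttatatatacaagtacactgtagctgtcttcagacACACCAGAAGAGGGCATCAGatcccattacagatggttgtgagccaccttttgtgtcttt
Pds5a, -44.6 kb: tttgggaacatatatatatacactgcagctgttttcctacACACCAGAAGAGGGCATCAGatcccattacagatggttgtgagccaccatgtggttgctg
Mau2, 55.6 kb: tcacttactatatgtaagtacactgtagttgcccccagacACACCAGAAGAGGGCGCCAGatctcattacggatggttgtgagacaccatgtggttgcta
Nipbl, 171 kb: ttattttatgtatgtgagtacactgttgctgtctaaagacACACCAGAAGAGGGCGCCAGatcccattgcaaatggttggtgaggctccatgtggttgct
Outside the 20 motif letters, by which the pairs were found, the pair from the Pds5a window had the same letter at 60 of 80 positions and the pair from the Mau2 and Nipbl windows at 46 of 80, compared without gaps and without a background value. Another pair, not printed, shared letters found at 74 places, a Lone CTCF peak in Ctcfl (6.85-fold at 5.52 kb) and a CAC peak in the Stag1 window (13.5-fold at 359 kb), with the same letter at 35 of 80 positions outside the motif. B2 short interspersed elements of the mouse genome are known to carry CTCF motifs. No repeat annotation was used here, and the authors kept uniquely aligned reads only, so the part that alignment to repeated sequence has in the strength of these peaks was not tested.

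**Figure D5:**
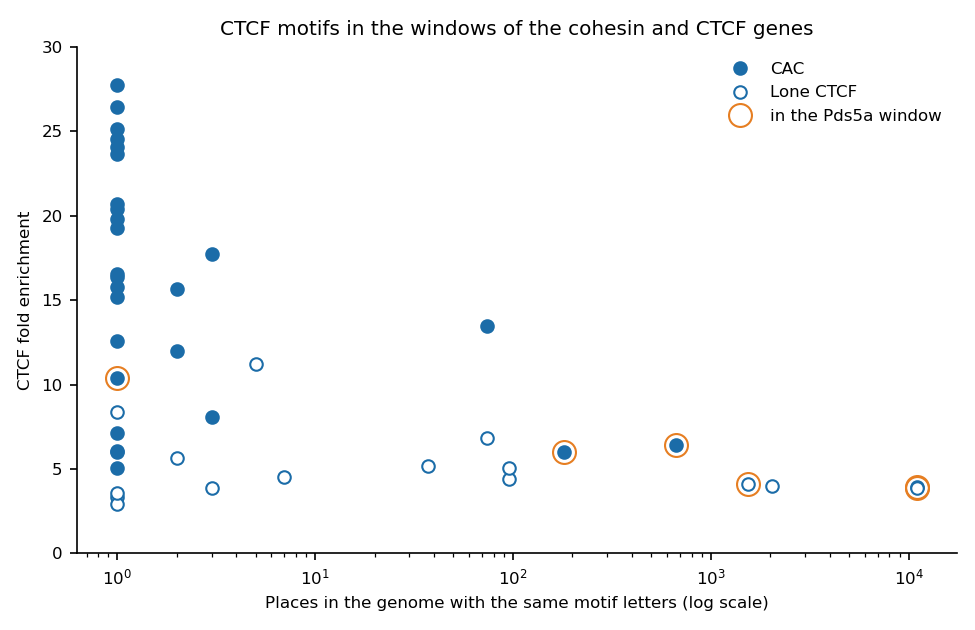
CTCF fold enrichment (y axis) of the 43 CTCF peaks with a motif in the 9 windows against the number of places in mm9 with the same 20 letters (x axis, log scale), filled for CAC and open for Lone CTCF peaks, ringed in orange for the Pds5a window. Peaks of at least 15-fold lie at 1 to 3 places, and the points farthest right, at 11032 places, are the pair from the Pds5a window.

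CTCF motifs act with an orientation, since cohesin is known to stop mostly where a motif faces it. In the bodies of the 9 genes, beyond the promoter, 12 CTCF peaks held a motif and 8 of these motifs pointed against the gene, beside 50.7% of 5527 such motifs on the 7 autosomes not used for learning. This difference was not tested. In Stag1 the promoter motif ran with the gene and the 3 motifs at 255, 267 and 274 kb ran against it. In Pds5b the promoter motif ran with the gene and the motifs at 29.2 and 44.3 kb ran against it. The promoter and intragenic motifs of Stag1 and of Pds5b thus faced each other, without a background value for how often this occurs. Of these intragenic peaks, those of Stag1 at 255 and 267 kb were Lone CTCF and the others were CAC. In Smc3, the remaining gene with a promoter motif, the intragenic motif at 37.8 kb ran against the gene and that at 43.8 kb with it. In Ctcfl, which had no motif at its promoter, 2 of the 3 intragenic motifs ran with the gene. No contacts between these sites were analysed.

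For the wider family, 29 further genes for cohesin subunits, cohesin regulators and related SMC complexes were examined, 3 of them on the X chromosome. Both factors were found at 23 of their promoters (47.4% of all autosomal promoters), CTCF only at 3 (3.63%), Rad21 only at 0 (3.26%) and neither at 3 (45.7%). Both factors reached 5-fold at 16 of the 29 (23.3% of all autosomal promoters). By role, both factors were present at 3 of 6 promoters of other cohesin subunits, 4 of 5 genes of loading, release and acetylation, 3 of 4 genes of protection and cleavage, and 13 of 14 genes of condensin and the SMC5/6 complex. Of the 24 CpG-rich promoters in this list, 23 carried both factors (79.5% of CpG-rich promoters genome-wide), and none of the 5 others did (20.5%). The strongest by the weaker of their factors' ranks was Stag2, the X-linked alternative to Stag1, with CTCF at 25.5-fold and Rad21 at 20.4-fold. It was followed by Ndnl2 (16.6- and 8.77-fold), Esco1 (28.0- and 8.54-fold), Nsmce2 (13.5- and 7.34-fold), Nsmce1 (11.2- and 7.34-fold) and Sgol1 (9.52- and 8.32-fold). Esco1 acetylates SMC3, Sgol1 protects cohesin at centromeres, and the others encode SMC5/6 subunits.

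Among the cohesin subunits the 3 promoters without both factors all belong to genes known for meiosis, named here after their values were seen. Smc1b and Rad21l had neither factor and Rec8 had CTCF only, at 2.89-fold. The fourth meiotic subunit gene, Stag3, carried both, with CTCF at 2.58-fold and Rad21 at 3.74-fold. Their counterparts of somatic cells were bound at each promoter. Smc1a carried CTCF at 6.29-fold and Rad21 at 3.999-fold, the Rad21 gene carried 5.20-fold and 3.27-fold, and Stag1 and Stag2 had the far stronger peaks given above. Of the meiotic genes, Rec8 and Rad21l were not CpG-rich and Smc1b and Stag3 were. Expression was not measured in these libraries, and the part of promoter CpG content or of transcription in these differences was not tested.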

How the data were processed

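CTCF and Rad21 ChIP-seq libraries of female liver were mapped by the authors to mm9 with Bowtie2, retaining unique alignments, and peaks were called with MACS2. That the lists used here were called on pooled libraries was taken from their names, which mark them as merged. The authors removed blacklisted regions and peaks of identical reads only. In the deposited peak lists the score is 10 times the -log10 q-value. The deposited fold enrichment, a ratio over local background, and the deposited -log10 q values were used as given. The lists hold no single-library columns, read depths or replicate values. Genes were taken from GENCODE vM1 on the same build. The main TSS was the one supported by most protein-coding transcripts, joining starts within 500 bp, and for the 6 of the 9 genes with a RefSeq start at hand, the nearest one lay within 380 bp of it. Peaks were shared if they overlapped by at least 1 bp. All genes were processed alike to give the background, with Python 3.11.15, pandas 2.3.3 and pysam 0.24.0. Overlap and motif code was tested on simulated data. The 9 genes, all of which are described, were taken with every promoter peak and the strongest peak of each window, and of the other 29 genes the 6 highest by the lower rank were named. Genes and lists were chosen with earlier results of these data known. The comparisons with CpG-rich promoters and with CTCF peaks at promoters and in genes, the genome copies of motifs and their orientation were added after the data were seen. The design holds no tests, since each factor has a single pooled list.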

Additional observations from a re-analysis of the deposited data

How the results depend on the processing

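Of 47 recomputed values, 29 stayed within set limits, which were a factor of 1.5 for counts and the 95% Wilson interval of the reported share for percentages. The 9 promoters with both factors remained 9 with promoters of 500 or 2500 bp on each side, with any TSS, and with summits required inside. With a fold enrichment of at least 5 they fell to 5, with 2 promoters carrying CTCF only, 1 Rad21 only and 1 neither, and with a -log10 q of at least 10 they fell to 7, with 1 carrying CTCF only and 1 with neither. The windows held 34 CTCF and 23 Rad21 peaks in the gene spans alone, 155 and 143 with 100 kb on each side, 53 and 37 at a fold enrichment of at least 5, and 65 and 51 at a -log10 q of at least 10. With summits required within 100 bp, 51.1% of CTCF and 57.1% of Rad21 peaks were shared. Of Rad21 peaks, 84.3% were shared at the stricter q and 86.5% at the stricter fold. Motifs were found at 67.0% of CTCF peaks at a level that 5% of flanking sequences reach. Weak peaks and the choice of window thus set the counts, by construction. Neither leaving out a library nor a paired analysis was possible with the lists, which hold no values per library. How much the values vary between mice is not known from them.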
